A study of Homo sapiens with 18 samples.

Results

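The genes described here were the effectors of the Hippo pathway and a set of genes that respond to them, namely YAP1, WWTR1, TEAD1, TEAD4, CCN1, CCN2, AMOT, AMOTL2 and LATS2. They were chosen by symbol, each matched through its Ensembl ID to 1 row of the table of all libraries, so that 9 of 16575 listed genes were members. All 9 passed the filter on low values (at least 5 CPM, the reads of a gene scaled to the library's total, in 1 library or more), as did 13022 genes in all. The study overexpressed WWOX, AP-2α or AP-2γ, or combinations of these, in RT-112, CAL-29 and HT-1376, 3 established cell lines of bladder cancer, and read transcription start sites by cap analysis of gene expression (CAGE), which counts the capped 5′ ends of RNA. RT-112 was grown in RPMI-1640 and the other lines in DMEM, with 15% serum for HT-1376 and 10% for RT-112 and CAL-29.

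Each line carried the same 6 variants, with 1 library per line and variant, and all 18 libraries came from cells that had been through lentiviral transduction in succession and the matching selections, first with puromycin and then with G418. KK received the control vector at both steps. WK received WWOX in pLenti-GIII-CMV-GFP-2A-Puro at the first step and the blank vector at the second. KA and KC received the control vector first and then AP-2α or AP-2γ in pLKO-Neo-CMV, whereas WA and WC received WWOX first and AP-2α or AP-2γ second. The transgenes were driven by a CMV promoter, and the 3 lines stood as the replicates of a variant, so that a difference between lines and a difference between replicates was the same thing in a comparison of variants.

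The Hippo pathway is a kinase cascade in which MST1 and MST2 (STK4 and STK3) activate LATS1 and LATS2, which phosphorylate the coactivators YAP and TAZ and keep them out of the nucleus. When the cascade is off, YAP and TAZ enter the nucleus and bind TEAD transcription factors, which turn on genes of adhesion, matrix and growth, some of which (LATS2 and AMOTL2 among them) restrain the pathway in return. YAP and TAZ carry WW domains that bind PPxY motifs, as does WWOX, a tumour suppressor known to bind AP-2 factors through such a motif.

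Depth was 13357102 to 17958572 reads on genes per library, so that 1 read was worth 0.0526 to 0.0709 CPM and 3 reads, taken as the floor, 0.158 to 0.213 CPM. The library labelled CAL-29 KC stood apart, with a median correlation over genes of 0.741 to the other CAL-29 libraries and of 0.940 to those of HT-1376, and with 46 of 47 HT-1376-specific genes at 10% or more of their HT-1376 KK level but 7 of 68 CAL-29-specific genes. Its values are therefore shown apart, and 17 libraries entered the comparisons other than those with KK. All 6 epithelial markers examined were present in each of the other 17 libraries, the lowest value being 12.6 CPM for KRT19. WWOX itself was 0.792 times as high in the 3 WWOX libraries as in the control libraries of RT-112, 0.951 times for HT-1376 and 1.66 times for CAL-29, none of which passed the test (limma, Benjamini-Hochberg adjusted p of 0.89, 0.91 and 0.37). The CAL-29 ratio rested on WK, with 155 CPM of WWOX, against 69.3 in WA and 62.4 in WC. The CAL-29 control libraries KK and KA had 63.7 and 51.3 CPM. A transcript that starts in the vector need not map to the gene, so these levels are no firm check of the transduction. TFAP2C, which encodes AP-2γ, was 1.40 ± 0.35 (SE) higher on the log2 scale in the AP-2γ libraries without passing the test (adjusted p = 0.999), and TFAP2A, which encodes AP-2α, was 0.51 ± 0.21 higher in the AP-2α libraries (adjusted p = 0.99985). Single libraries did not all follow their labels. RT-112 WA, an AP-2α library, had 180 CPM of TFAP2C, above the AP-2γ library WC (143) and WK (56.2), with 25.3 CPM of TFAP2A (WK 20.3). HT-1376 WC had 163 CPM of TFAP2C, above WK (69.0) but near KK (158).

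Promoter sequences show which members hold letters that TEAD or AP-2 factors are known to bind. RefSeq windows (GRCh38.p14) of 300 bases, from 250 before to 50 after a start site, were at hand for 6 of the 9 genes, in 8 windows (WWTR1 and AMOTL2 have 2 each), and not for CCN1, TEAD1 and TEAD4. The TEAD motif was searched as GGAATG, the AP-2 motif as GCCNNNGGC and the AP-1 motif as TGANTCA, on both strands and with overlaps allowed. The CCN2 window held 3 TEAD motifs, at 169, 104 and 95 bases before the start site, and 1 AP-2 motif at 25 bases before it. Of 35116 windows in the table, 14% held at least 1 TEAD motif, 0.128% held 3 or more, 23.2% held an AP-2 motif and 7.71% an AP-1 motif. The 180 bases before the CCN2 start (chr6:131951373-131951552, minus strand) are shown because CCN2 in CAL-29 had the largest WWOX difference of a member in any line, and the 30 bases around the single TEAD motif of AMOTL2 (chr3:134374498-134374527, minus strand, at the second of its start sites) because AMOTL2 was the member that passed a test of WWOX. Capitals mark the TEAD motif, which reads CATTCC where it lies on the other strand.
CCN2: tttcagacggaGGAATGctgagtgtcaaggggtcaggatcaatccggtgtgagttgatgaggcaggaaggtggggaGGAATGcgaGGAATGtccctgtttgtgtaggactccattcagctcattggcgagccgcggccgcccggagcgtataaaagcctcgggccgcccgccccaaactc
AMOTL2: tgaaactctcaCATTCCtggcatagcagcc
The CCN2 stretch lies upstream of the gene and overlaps no annotated exon, although an antisense long non-coding RNA, LINC01013, crosses it on the plus strand. The AMOTL2 stretch lies inside the gene, 51 to 80 bases before the second start site and within an exon of annotated transcripts that start further upstream.

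**Figure D1:**
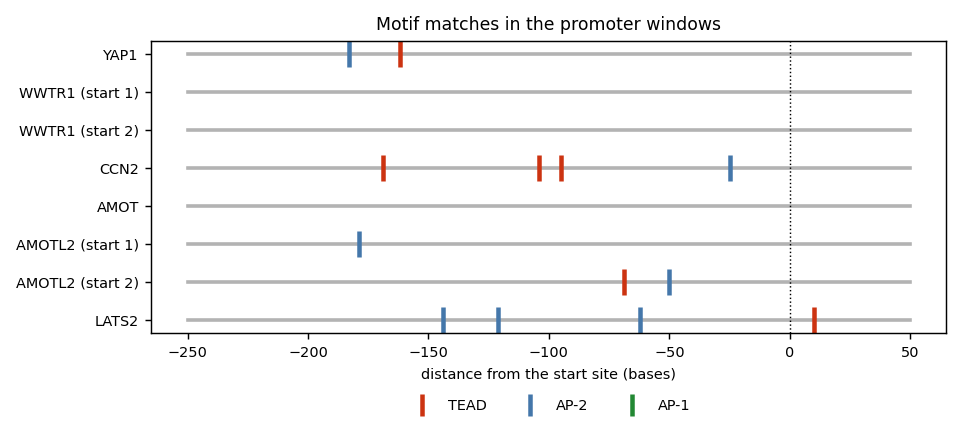
Positions of TEAD, AP-2 and AP-1 motif matches in the 8 RefSeq promoter windows of 6 member genes, with the distance from the start site in bases on the x axis (dotted line at the start). CCN2 holds 3 TEAD motifs, LATS2 holds 3 AP-2 motifs, and the WWTR1 and AMOT windows hold none of the 3 motifs.

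YAP1 held 1 TEAD motif at 162 and 1 AP-2 motif at 183 bases before its start, and LATS2 held AP-2 motifs at 144, 121 and 62 bases before its start with a TEAD motif 10 bases after it. AMOTL2 held an AP-2 motif at each start site, at 179 bases before the first and 50 bases before the second. No AP-1 motif was found in these 8 windows. A match is a description of letters and not a bound site.

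The level of each gene in each line was then compared. The transcriptional coactivator YAP1 ranged from 8.88 to 13.9 CPM in the 6 RT-112 libraries (median 10.3), from 23.2 to 31.4 CPM in the 6 libraries of HT-1376 (median 25.8) and from 17.8 to 54.5 CPM in the 5 of CAL-29 (median 33.0). RT-112 lay wholly below the other lines, whose ranges overlapped. WWTR1, which encodes TAZ, the paralogue of YAP, ranged from 8.81 to 13.3 CPM in RT-112 (median 11.0), from 11.2 to 31.8 CPM for HT-1376 (median 18.02) and from 19.8 to 37.5 CPM for CAL-29 (median 30.6). RT-112 and CAL-29 did not overlap in WWTR1, while HT-1376 overlapped with both. The share of all genes that separate the lines in this way was not counted. By the test given below, 61.9% of all genes differed between RT-112 and HT-1376 and 71.5% between RT-112 and CAL-29.

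Of the DNA-binding partners, TEAD1 stood at 5.21 to 8.32 CPM in RT-112, where HT-1376 had 8.22 to 26.6 CPM and CAL-29 had 8.27 to 24.2 CPM, and RT-112 overlapped with each by its highest library. TEAD4 was at similar levels in the 3 lines, with means of 16.6 ± 3.31 CPM for RT-112 (SD, n = 6), 17.4 ± 4.005 CPM for HT-1376 (n = 6) and 17.3 ± 6.48 CPM for CAL-29 (n = 5), and with overlapping ranges throughout. CCN1 (CYR61), a secreted matrix protein and one of the best known YAP target genes, was lowest in RT-112 at 21.2 to 39.4 CPM, followed by CAL-29 at 31.0 to 147 CPM and HT-1376 at 73.7 to 528 CPM, each overlapping with its neighbour in that order. CCN2 (CTGF), its relative and likewise a YAP target, stayed between 0.86 and 12.3 CPM, the median being 2.88 CPM for RT-112, 1.34 CPM for HT-1376 and 9.89 CPM for CAL-29.

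The angiomotins bind YAP and hold it in the cytoplasm and at junctions. AMOT was the member with the sharpest difference between lines, since RT-112 gave 1 read in all 6 libraries together, whereas HT-1376 gave 704 reads (3.38 to 10.1 CPM) and the 5 CAL-29 libraries 126 reads (0.17 to 2.54 CPM). The ratio of pooled AMOT levels was 778 for HT-1376 against RT-112 (95% exact interval 139 to 30775) and 152 for CAL-29 against RT-112 (26.8 to 6043), intervals that cover counting error only. AMOTL2 was abundant in all lines, at 64.5 to 94.8 CPM in RT-112 (median 83.8), at 78.3 to 252 CPM for HT-1376 (median 109) and at 120 to 185 CPM for CAL-29 (median 163). LATS2, the kinase that phosphorylates YAP and TAZ, stood at 7.68 to 14.1 CPM in RT-112, while HT-1376 had 14.6 to 37.3 CPM and CAL-29 had 22.03 to 28.6 CPM. RT-112 lay below all libraries of the other lines in LATS2, too, again without a count over all genes.

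**Figure D2:**
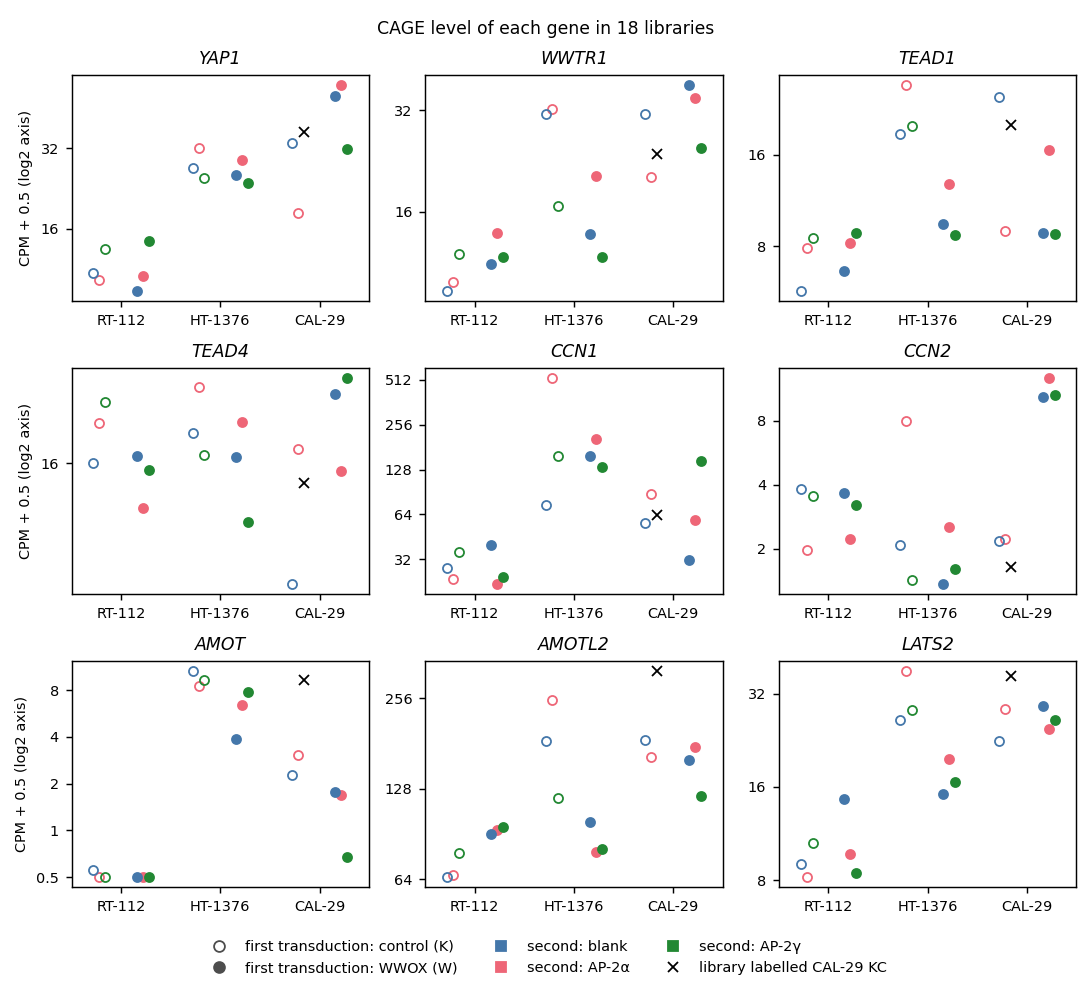
CAGE level of each of the 9 genes (CPM + 0.5, log2 axis) in 18 libraries, 1 point per library, grouped by cell line. Open circles are control libraries (KK, KA, KC) and filled circles WWOX libraries (WK, WA, WC), the colour gives the second transduction, and the cross is the library labelled CAL-29 KC; CCN2 in CAL-29 shows the WWOX libraries at 9.89 to 12.3 CPM above the control libraries at 1.68 and 1.71.

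In the comparisons with RT-112, the members called were about as frequent as the genes called in the whole table, most of which were likewise lower in RT-112. The lines of each comparison also differed in medium, serum or both, so line and culture cannot be told apart. When compared to HT-1376, 6 of 9 members were lower in RT-112 and none higher (limma on log2(CPM + 0.5), Benjamini-Hochberg adjusted p under 0.05), in a comparison in which 61.9% of all 13022 genes passed the test. The lower members were YAP1 (log2FC −1.24 ± 0.23 SE, adjusted p = 0.00040), WWTR1 (−0.80), TEAD1 (−0.97), CCN1 (−2.62 ± 0.38, adjusted p = 4.8e-05), AMOT and LATS2 (−1.20). AMOTL2 missed the threshold with a log2FC of −0.62 ± 0.26 (adjusted p = 0.0503). The median of the 9 members was −0.97, beside −0.43 over all genes.

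For CAL-29 against RT-112, 7 of 9 members were higher in CAL-29 and none lower, where 71.5% of all genes passed the test. These were YAP1 (log2FC 1.64 ± 0.25, adjusted p = 5.2e-05), WWTR1 (1.35), TEAD1 (0.77), CCN1 (1.26), AMOT, AMOTL2 (0.98) and LATS2 (1.44). For CAL-29 against HT-1376, CCN1 (−1.35 ± 0.41, adjusted p = 0.011) and AMOT (−2.09 ± 0.32, adjusted p = 0.00010) were lower in CAL-29, where 61% of all genes passed the test. Fitted values of AMOT against RT-112 depend on the added 0.5 CPM and are not given. TEAD4 and CCN2 passed the test in none of the 3 line comparisons, with intervals (1 SE) of TEAD4 of −0.06 ± 0.25, −0.04 ± 0.26 and 0.02 ± 0.26.

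The scale mattered for these comparisons. The median log2FC of all genes was −0.43, 0.47 and 0.84 for RT-112/HT-1376, CAL-29/HT-1376 and CAL-29/RT-112 in the CPM as deposited and −0.09, 0.09 and 0.14 after TMM scaling, and the share of lower genes among those called moved from 69%, 28.9% and 21.4% to 52.3%, 47.1% and 45.6%. After TMM scaling, YAP1 (log2FC 0.89), WWTR1 (0.61), AMOT and LATS2 (0.70) were still higher in CAL-29 than in RT-112, TEAD4 became lower (−0.72, adjusted p = 0.033), and TEAD1 (0.04), CCN1 (0.51) and AMOTL2 (0.22) no longer passed the test. In RT-112 against HT-1376, WWTR1 alone lost its call (−0.44, adjusted p = 0.12). The median of the members in CAL-29/HT-1376 turned from 0.24 to −0.15.

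**Figure D3:**
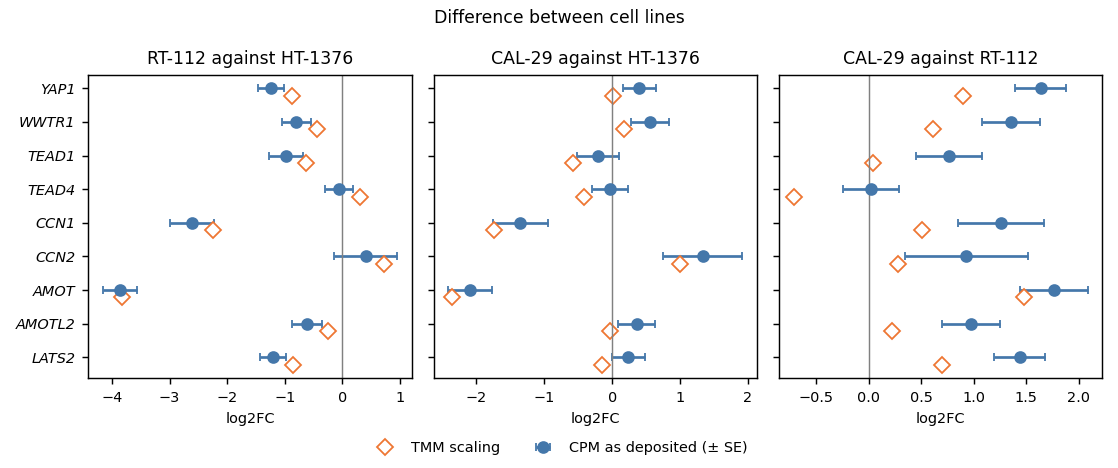
Difference between cell lines (log2FC on the x axis) for the 9 genes, 1 panel per pair of lines. The lines of each pair also differed in medium, serum or both. Filled circles with bars are the fit to CPM as deposited (± SE), and open diamonds the same fit after TMM scaling; in CAL-29 against RT-112 the diamonds lie to the left of the circles, with TEAD4 moving from 0.02 to −0.72.

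Comparisons of the variants, with the 3 lines as replicates, addressed whether WWOX, AP-2α or AP-2γ changed these genes across bladder cancer cells. No member was called in any of the 5 comparisons with KK, and neither was any other gene (0% of 13022 in each, limma with Benjamini-Hochberg adjustment). This fit had no block for the cell line, so differences between lines entered its error. It also kept the library labelled CAL-29 KC. The genes with an unadjusted p under 0.05 numbered 38 for WK, 37 for WA, 84 for WC, 7 for KA and 11 for KC, and held no member. On recovered reads edgeR called 0 genes in each, and DESeq2 called 3, 3, 9, 2 and 4, again with no member. The member log2FC lay between −0.79 (AMOT in WC/KK, SE 1.55) and 1.08 (CCN1 in KA/KK, SE 1.09). Leaving out CAL-29, and with it the library that stood apart, KC/KK for AMOT went from 0.55 to −0.18 and for AMOTL2 from 0.14 to −0.18, again without a call.

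Fits that held the line constant over 17 libraries gave the same counts. No member and no other gene passed the test for WWOX, AP-2α or AP-2γ over all lines (0% each, 1598, 199 and 343 genes at an unadjusted p under 0.05), whereas edgeR on the recovered reads called 16, 1 and 2 genes and DESeq2 225, 1 and 12, no member among them. AMOT was the member with an unadjusted p under 0.05, with a log2FC of −0.55 ± 0.24 for WWOX (adjusted p = 0.38). Of the AP-2 effects, CCN1 had the largest values, 0.60 ± 0.38 for AP-2α and 0.54 ± 0.40 for AP-2γ (adjusted p = 0.99985 and 0.999).

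Within HT-1376, AMOTL2 was lower in the WWOX libraries. It stood at 183, 252 and 119 CPM in KK, KA and KC and at 99.0, 78.3 and 80.2 CPM in WK, WA and WC. Each WWOX library lay below each control library, with a log2FC of −1.04 ± 0.22 (adjusted p = 0.012), in a comparison in which 8.59% of all genes passed the test. Libraries with another second transduction stood in as replicates of the WWOX state, so the p does not measure spread between repeated WWOX transductions. AMOTL2 was the single member called. It stayed past the threshold under 11 of 14 alternatives, and without the KA and WA libraries its log2FC was −0.73 (adjusted p = 0.13), without KK and WK −1.12 (adjusted p = 0.16) and with the library labelled CAL-29 KC included −1.04 (adjusted p = 0.069).

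LATS2 missed the threshold narrowly. It measured 25.7, 37.3 and 27.8 CPM in KK, KA and KC and 14.6, 19.2 and 16.1 CPM in WK, WA and WC (log2FC −0.83 ± 0.24, adjusted p = 0.0507), without overlap between the groups. TEAD1 was at 18.2, 26.6 and 19.4 CPM in the control libraries and at 9.0, 12.3 and 8.22 CPM in the WWOX libraries (log2FC −1.08 ± 0.37, adjusted p = 0.085), again without overlap. After TMM scaling TEAD1 was called, with −0.96 (adjusted p = 0.048).

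WWTR1 measured 30.7, 31.8 and 16.2 CPM in KK, KA and KC and 13.3, 19.9 and 11.2 CPM in WK, WA and WC, so that the groups overlapped through KC and WA (log2FC −0.78 ± 0.28, adjusted p = 0.093). AMOT went from 8.00 to 10.1 CPM in the control libraries to 3.38 to 7.34 CPM in the WWOX libraries with a log2FC of −0.70 ± 0.37 (adjusted p = 0.24). YAP1, in contrast, differed by −0.10 ± 0.28 and changed sign after TMM scaling (0.03). In pairs of libraries with the same second transduction, the WWOX library was the lower one in 25 of 27 pairs over the 9 genes, the exceptions being CCN1 and CCN2 with a single pair each. The 27 are the same 3 library pairs read in 9 genes, so they are not independent. Such pairs were not counted over all genes, so the count is not shown to be particular to the members. The YAP1 pairs in it were small, with log2 ratios of −0.09, −0.15 and −0.06. TEAD1, AMOT, AMOTL2 and LATS2 were the 4 members with each WWOX library below each control library, which held for 22.8% of all genes. The median log2FC of the 9 members was −0.70, beside −0.13 over all genes, of which 59.8% lay below 0. After TMM scaling these medians were −0.59 and −0.02.

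The summed level of fibroblast markers was higher in the WWOX libraries of this line, but not each marker was. Of 7 markers, 5 were in the table (COL1A1, COL1A2, COL3A1, LUM and THY1), and their summed level was 5.40 to 16.1 CPM in the HT-1376 control libraries and 41.1 to 64.0 CPM in the WWOX libraries. COL1A2, a chain of type I collagen, went from 1.49 to 4.37 CPM to 18.9 to 46.1 CPM, while LUM stayed at 0.22 CPM or less. COL1A1 was at 1.32 to 11.1 CPM in the control libraries and at 13.2 to 23.3 CPM in the WWOX libraries. THY1 was at 0.07 to 3.47 CPM and at 4.35 to 12.8 CPM, respectively. COL3A1 was at 1.51, 2.78 and 0 CPM in KK, KA and KC and at 0.11, 0.19 and 0.22 CPM in WK, WA and WC, lower in the WWOX library of 2 of 3 pairs. Their part in the lower member levels was not tested. In bulk RNA, fewer cells of a type and less RNA per cell cannot be told apart.

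The remaining pathway genes in HT-1376 were examined from lists of 14 core and upstream kinase components, 7 cofactors, 17 further YAP targets and 7 immediate early genes. None of the 14 core components was called (median log2FC −0.09, and 0.04 after TMM scaling), with MOB1A at 0.07 and TAOK2 at 0.05, the most abundant of them. STK3, singled out after its values were seen, was at 10.5, 14.5 and 12.6 CPM in KK, KA and KC and at 4.13, 4.79 and 4.22 CPM in WK, WA and WC (log2FC −1.41, adjusted p = 0.087), and was the core component called after TMM scaling (adjusted p = 0.047), but not under quantile normalization (0.068). Of 7 TEAD and YAP cofactors, 3 fell and none rose, where 8.59% of all genes passed the test in either direction. VGLL1, a vestigial-like protein that binds TEAD in place of YAP, measured 111, 118 and 70.6 CPM in KK, KA and KC and 21.3, 15.3 and 20.2 CPM in WK, WA and WC (log2FC −2.34 ± 0.37, adjusted p = 0.0024), without overlap. VGLL3, of the same family, fell by 1.499 on the log2 scale, and PTPN14, a phosphatase that retains YAP in the cytoplasm, fell by 1.31.

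Among 16 further YAP target genes past the filter (RBMS3 was not in the table), 3 fell and 1 rose, again beside 8.59% of all genes. TGFB2, a ligand of the TGF-β family, fell by 1.98, CRIM1 by 1.08 and NT5E, the ecto-5′-nucleotidase CD73, by 1.01, while IGFBP3, a carrier of insulin-like growth factors, rose by 1.59 (adjusted p from 0.012 to 0.048). NT5E lost its call after TMM scaling (adjusted p = 0.056) and under quantile normalization (0.14). JUN, 1 of 7 immediate early genes, rose by 1.07, a call that was lost under quantile normalization (1.05, adjusted p = 0.058). The medians of these lists were −0.57 for the cofactors, −0.23 for the further targets and 0.02 for the immediate early genes.

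**Figure D4:**
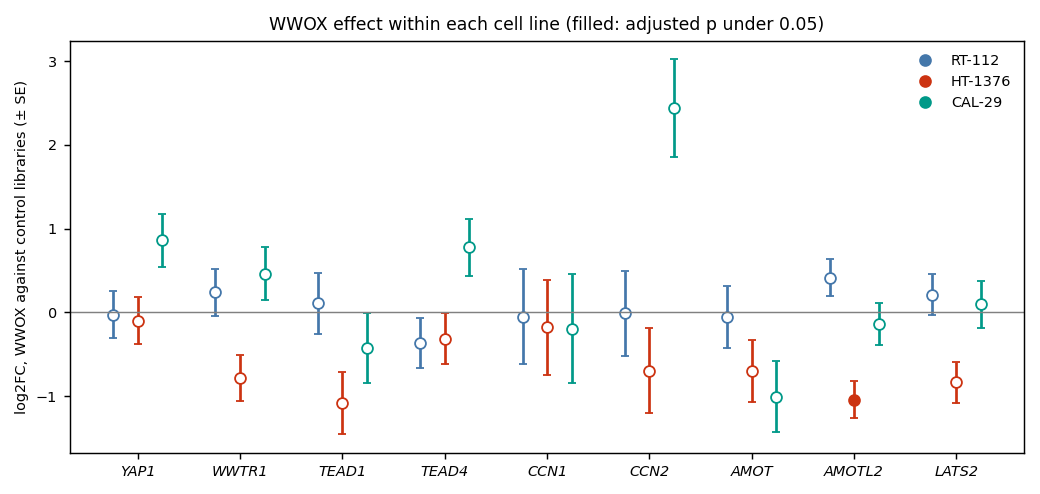
WWOX effect within each cell line for the 9 genes, as log2FC of WWOX against control libraries with SE bars, from 1 fit to 17 libraries. The single filled point is AMOTL2 in HT-1376 at −1.04 (adjusted p under 0.05), and CCN2 in CAL-29 at 2.44 is the highest open point.

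In CAL-29 no member was called, and CCN2 had the largest value. It measured 1.68 and 1.71 CPM in KK and KA, 1.13 CPM in the library labelled CAL-29 KC, and 9.89, 12.3 and 10.1 CPM in WK, WA and WC. The WWOX mean was 6.35 times the control mean (log2FC 2.44 ± 0.58, adjusted p = 0.082), with no overlap, which held for 9% of all genes in that direction. CCN2 was thus not called, in a comparison in which 0.591% of all genes passed the test. It was called under 4 of 14 alternatives, including DESeq2 on recovered reads (2.78, adjusted p = 0.0059), and the adjusted p ran from 0.0059 to 0.60. Without KA and WA it was called (2.33, adjusted p = 0.029), with 1 control library left and assumed to vary like the others.

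YAP1 stood at 33.0 and 17.8 CPM in KK and KA of CAL-29 and at 49.4, 54.5 and 31.3 CPM in WK, WA and WC (log2FC 0.86 ± 0.32, adjusted p = 0.27), so that WC overlapped with KK. TEAD4 measured 8.07 and 16.7 CPM in the control libraries and 22.4, 14.9 and 24.4 CPM in the WWOX libraries (0.78 ± 0.34, adjusted p = 0.37). AMOT was at 1.79 and 2.54 CPM in KK and KA and at 1.27, 1.20 and 0.17 CPM in WK, WA and WC, the last near the floor, with each WWOX library below each control library, as for 9.8% of all genes. TEAD1 in CAL-29 rested on KK, with 24.2 CPM in KK against 8.46 in KA, and its log2FC of −0.43 became 0.60 without KK and WK and −1.58 without KA and WA (called, adjusted p = 0.046).

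In RT-112 no member was called, nor any other gene (0% of 13022, smallest adjusted p 0.092, 979 genes at an unadjusted p under 0.05, no member among them), and DESeq2 called 25 genes and edgeR 0, no member either. AMOTL2 had the largest value, with 64.5, 65.8 and 77.9 CPM in KK, KA and KC and 89.7, 92.5 and 94.8 CPM in WK, WA and WC (log2FC 0.41 ± 0.22, adjusted p = 0.74). The groups did not overlap, as for 9.48% of all genes in that direction. LATS2 was at 14.1 CPM in WK and at 7.68 to 10.1 CPM in the other 5 libraries.

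AMOTL2 was also the member whose WWOX effect differed between lines (limma F test of the line-specific effects, adjusted p = 0.048, 3.02% of all genes), with −1.04 in HT-1376, 0.41 in RT-112 and −0.13 in CAL-29. This F test used the same stand-in replicates. CCN2 followed with an adjusted p of 0.072. The call for AMOTL2 was lost with edgeR, with limma-voom, with a smaller pseudocount, with the library labelled CAL-29 KC included and without the K or the A pairs. For the other 7 members the adjusted p ran from 0.15 for WWTR1 to 0.99 for CCN1.

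None of the genes in the 4 lists was called for WWOX in RT-112 or CAL-29, where 0% and 0.591% of all genes were called. The F test of a difference between lines, which 3.02% of all genes passed, called VGLL1 (adjusted p = 0.0070), VGLL3 (0.019) and the further target FJX1 (0.019). VGLL1 in CAL-29 had a log2FC of 1.74 ± 0.42 (adjusted p = 0.084), opposite in sign to HT-1376, and VGLL4, the most abundant cofactor, 0.16. IGFBP3 and GADD45A, the most abundant of the further targets, were at −0.0030 and −0.45 in CAL-29 and at −0.0038 and 0.71 in RT-112. MOB1A and TAOK2 of the core components were at 0.33 and 0.01 in CAL-29 and at −0.49 and −0.10 in RT-112. JUNB and JUN were at 0.77 and 0.47 in CAL-29 and at 1.040 and 0.45 in RT-112. VGLL1 and VGLL4 in RT-112 were at −0.03 and −0.35.

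**Figure D5:**
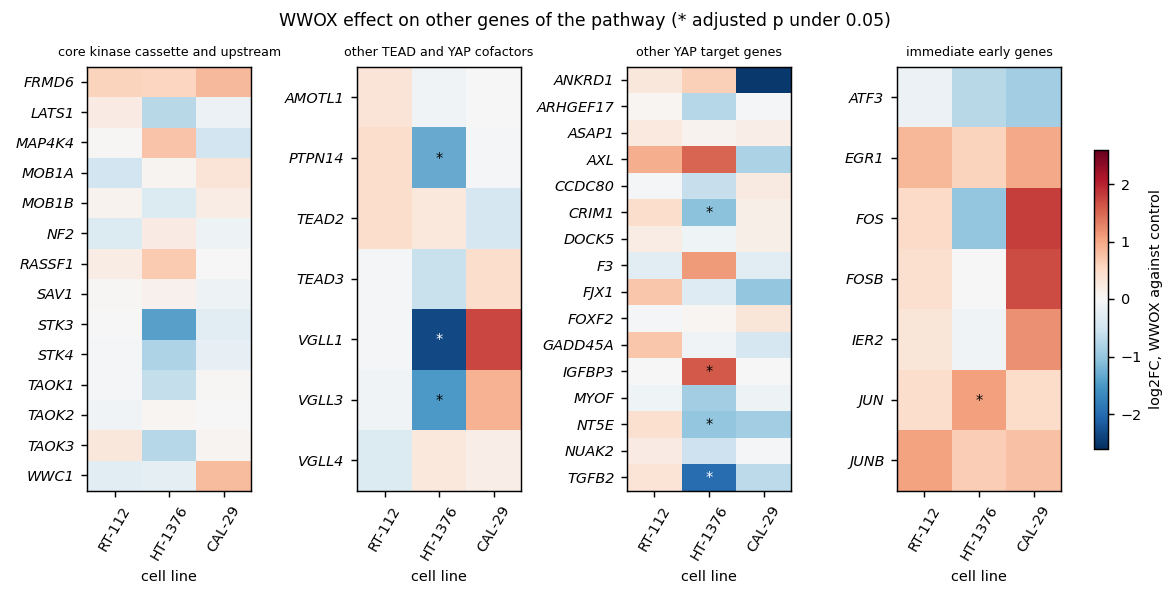
WWOX effect (log2FC of WWOX against control libraries, colour) on genes of the 4 lists in each cell line, with an asterisk at an adjusted p under 0.05. The 8 asterisks all stand in HT-1376, 6 of them for lower genes, led by VGLL1 at −2.34 and TGFB2 at −1.98. Over all genes, 8.59% were called in HT-1376, 0% in RT-112 and 0.591% in CAL-29.

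The 4 lists were also compared between lines, where 61.9% (RT-112/HT-1376), 71.5% (CAL-29/RT-112) and 61% (CAL-29/HT-1376) of all genes passed the test, so that counts near these shares say nothing particular about a list. In RT-112 against HT-1376, 10 of 14 core components were lower and none higher, led by WWC1 (KIBRA, an upstream activator; log2FC −2.09) and the kinase TAOK3 (−1.57), and after TMM scaling 8 were lower and 1 higher (6 and 2 under quantile normalization). All 4 cofactors called were lower in RT-112, namely the angiomotin AMOTL1 (−3.45), TEAD2 (−2.10), VGLL3 (−1.91) and PTPN14 (−1.07, which missed the threshold after TMM scaling, where 3 cofactors were lower and 1 higher). Of the further targets 10 were lower and 3 higher in RT-112, with TGFB2 (−4.67) and FJX1 (−3.00) at one end and FOXF2 (4.63) and IGFBP3 (3.59) at the other. The immediate early genes EGR1 (−3.14) and ATF3 (−1.57) were lower and IER2 (0.64) higher.

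In CAL-29 against RT-112, 11 of 14 core components were higher, led by the MST1 kinase STK4 (2.71) and MAP4K4 (2.47), a count that became 11 higher and 3 lower after TMM scaling and 7 and 3 under quantile normalization. The cofactors TEAD2 (4.41), AMOTL1 (2.98), PTPN14 (1.40) and VGLL4 (0.96) were higher, the latter pair not after TMM scaling, where 2 cofactors were higher and 2 lower. Further targets were higher in 12 cases and lower in 2, with TGFB2 (5.84) and CCDC80 (5.37) against FOXF2 (−1.69) and NT5E (−1.55), and in 7 and 3 cases under quantile normalization. EGR1 (5.42) and ATF3 (1.79) were higher and IER2 (−1.18) and JUNB (−0.66) lower.

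In CAL-29 against HT-1376, 7 core components were higher and 2 lower, with STK4 (1.76) and FRMD6 (1.61) against RASSF1 (−1.28) and TAOK2 (−0.40). TEAD2 (2.31) and VGLL4 (1.06) were higher and VGLL3 (−1.64) and VGLL1 (−1.57) lower. Of the further targets 7 were higher and 3 lower, with IGFBP3 (4.70) and AXL (3.99) against NT5E (−2.70) and NUAK2 (−2.31), and 5 against 5 after TMM scaling. FOSB (2.40), EGR1 (2.28) and FOS (2.21) were higher, FOS not after TMM scaling. Of the 7 immediate early genes, TMM scaling left 2 higher and 2 lower in each comparison of CAL-29, and 3 higher and 2 lower in RT-112 against HT-1376. Line comparisons share libraries with one another and were not correlated. Nor can the line be told apart from its medium and serum in them.

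No member was called for AP-2α or AP-2γ, and 1 HT-1376 library stood apart in CCN1 and CCN2. In HT-1376, KA gave 528 CPM of CCN1 against 73.7 in KK and 158 in KC, and 7.49 CPM of CCN2 against 1.58 and 0.92, ratios of 7.16 and 4.74 to KK. The same step on the WWOX background, WA against WK, gave 204 and 158 CPM of CCN1 and 2.04 and 0.86 CPM of CCN2. HT-1376 KA was also high in the immediate early genes EGR1 (152 CPM, against 11.5 to 74.6 in the other 5 HT-1376 libraries) and FOS (70.9 CPM, against 2.17 to 5.43), in MYL9, a myosin light chain (59.97 CPM, against 8.68 to 32.7), and in FLNA, filamin A (550 CPM, against 209 to 372). Not each immediate early gene was highest there, since JUN was at 326 CPM in KA, below WK (360) and WA (352). CCN1 rose neither in RT-112 KA (23.1 CPM, KK 27.5) nor by as much in CAL-29 KA (87.2 CPM, KK 55.1). The AP-2α step was not tested within HT-1376 alone.

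Levels that moved together were described by Pearson's r of log2(CPM + 0.5) over 17 libraries after the mean of each line was subtracted. Members paired most closely as WWTR1 with AMOTL2 (0.761), TEAD1 with AMOTL2 (0.719), AMOTL2 with LATS2 (0.677) and YAP1 with CCN2 (0.662), whereas CCN1 and CCN2 gave 0.383. Other member pairs lay near or below 0, such as YAP1 with LATS2 (0.004) and, lowest, TEAD4 with AMOT (−0.327). How many pairs among all genes reach such values was not counted. Over all 13022 genes, those most like each member were SKP2 (0.924) and DDX17 (0.920) for WWTR1, NUP58 (0.964) and the kinase STK3 (0.956) for TEAD1, MYL6P2 (0.893) and WWC1 (0.871) for TEAD4, FLNA (0.837) and MYL9 (0.819) for CCN1, PI4KA (0.892) and SMAD3 (0.862) for CCN2, PNPLA4 (0.920) and UBXN10 (0.918) for AMOT, and DCK (0.880) and RBMS2 (0.869) for LATS2. For YAP1 they were STON1 and STON1-GTF2A1L (0.899 each), which overlap and share reads, and for AMOTL2 MIR3180-4 and PKD1P6 (0.907 each), repeat copies whose counts are uncertain. The 17 points share lines, transductions and depth, so these values carry no p.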

How the data were processed

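RNA of 18 libraries (3 cell lines, 6 variants, 1 library each) was converted by the authors to CAGE libraries. Per the labels and the study's methods, reads were mapped to hg38 with BWA and the remainder with HISAT2 (v2.0.5), tags were clustered and gene levels were deposited as CPM. The table's Ensembl IDs were matched to GENCODE 44 symbols (16553 of 16575). Values above 0 were whole multiples of 1 read in 99.97 to 99.99% of cases (tolerance 0.0051 CPM), which gave the depth and the reads used in alternatives. In 1 library (RT-112 WC) the step was less certain among low values. Members and gene lists were chosen with earlier results of these data known.

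Genes that reached 5 CPM in 1 library or more (13022) were tested on log2(CPM + 0.5) with limma (v3.58.1, trend, R v4.3.3) and Benjamini-Hochberg adjustment over all genes, called at an adjusted p under 0.05. Variant comparisons used 18 libraries without a block. Line, WWOX and AP-2 terms used 17 libraries, without the library labelled CAL-29 KC. Within a line, libraries with another second transduction stood in as replicates of the WWOX state, with AP-2 terms shared by the lines. Comparisons with KK had 3 libraries per arm, line comparisons 5 or 6 and WWOX within a line 2 or 3, and nothing in the sources used here says that libraries of 1 line came from separate cultures. The log2 scale with 0.5 CPM understates changes of low genes. The libraries differed beyond sampling noise (smallest chi-square per degree of freedom 20.4). The code of the fits was run on simulated counts with planted changes. Those counts had a single fixed dispersion and no AP-2 effect, so the run cannot tell what the fits could detect in these libraries. Same-numbered libraries come from the same cell line and deviated together (correlation of 0.742 to 0.915 for RT-112, 0.588 to 0.896 for HT-1376 and 0.663 to 0.881 for CAL-29, down to 0.036 with the library labelled CAL-29 KC). Alternatives used edgeR (v4.0.16), DESeq2 (v1.42.0), limma-voom, TMM, quantile normalization, other pseudocounts and filters, and left out libraries. Named genes were all members, list genes called (beyond 4, the 2 largest rises and falls; if none, the 2 most abundant) and the 2 genes most like each member. COL1A2 and the genes named for HT-1376 KA were singled out after their values were seen. Sequences are from RefSeq. A search for PPxY motifs and WW domains was not run.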

Additional observations from a re-analysis of the deposited data

Results flagged for a closer look

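Of 26 groups of 5 or 6 libraries (a member in a line, AMOT in RT-112 left out), 3 held a library whose gap to its nearest neighbour exceeded Dixon's 95% value, where chance flags about 1 in 20. CCN1 in HT-1376 KA was at 527.68 CPM (gap 0.713 of the range), CCN2 in the same library at 7.49 CPM (0.822), and LATS2 in RT-112 WK at 14.1 CPM (0.631).

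The WWOX effect on AMOTL2 differed between lines (limma F test, adjusted p = 0.048), and every same-step pair of WWOX and control libraries went up in RT-112 (mean log2 ratio 0.41) and down in HT-1376 (−1.04). For TEAD1, the pairs likewise went up in RT-112 (0.11) and down in HT-1376 (−1.08). YAP1 went down in the 3 pairs of HT-1376 (−0.10, and 0.03 in the fit after TMM scaling) and up in the 2 of CAL-29 (1.08), and WWTR1 down in HT-1376 (−0.78) and up in CAL-29 (0.53). The difference for TEAD1, YAP1 and WWTR1 did not pass the F test (adjusted p = 0.35, 0.30 and 0.15). The log2 ratios of TEAD1 in the RT-112 pairs were small, at 0.22, 0.05 and 0.05. How many of all genes have opposite pairs in this way was not counted, so these flags are not particular to the members.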

How the results depend on the processing

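No member was called in the comparisons with KK, over all lines or for WWOX in RT-112 under any alternative run, including the replicate block of cell line (0 members with and without it). Under the block, genes at an unadjusted p under 0.05 in WC/KK went from 84 to 1399, and to 1823 without the library labelled CAL-29 KC, none called. For WWOX in HT-1376, 1 member was called in the fit as reported, 2 with a pseudocount of 2 CPM, no filter, TMM, DESeq2 or no AP-2 terms, 0 with all 18 libraries, and 0 to 1 when 1 pair of libraries was left out. In CAL-29 the count went from 0 to 1 under quantile normalization, DESeq2 and 18 libraries and was 0 to 2 with a pair left out (2 without KA and WA). The difference between lines gave 0 members with a pseudocount of 0.05 CPM, edgeR, limma-voom or 18 libraries, 2 with a pseudocount of 2 CPM, quantile normalization or DESeq2, and 0 to 1 with a pair left out. CAL-29/HT-1376 gave 2 to 5 members with a variant left out (5 without KA), and CAL-29/RT-112 gave 4 under quantile normalization, edgeR and DESeq2. TEAD1 in CAL-29/RT-112 turned to −0.35 under quantile normalization and −0.0496 under DESeq2; the cause was not tested. All genes called for WWOX went from 1118 to 1429 in HT-1376 after TMM and from 77 to 24 in CAL-29 with edgeR. Depth limited AMOT in RT-112, where 0 reads allow up to 0.158 to 0.181 CPM.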
